A study of Mus musculus with 5 samples.

Results

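The cells described here are the venous endothelial cells of the mouse lung, the lining of the veins that carry blood out of the alveolar capillaries. They were chosen by measured values, from droplet counts in which each unique molecular identifier (UMI) stands for 1 captured RNA molecule. A barcode was kept if it held 700 genes or more, with mitochondrial genes making up 0.1 to 15% of its UMIs, and was called endothelial with at least 3 UMIs of *Cdh5*, *Pecam1* and *Cldn5* together and none of the epithelial gene *Epcam*, the mesenchymal genes *Pdgfra* and *Pdgfrb*, the leukocyte gene *Ptprc* or the proliferation genes *Mki67* and *Top2a*. A venous cell then had at least 2 UMIs of *Vwf* and at least 1 of *Slc6a2* or *Bst1*, with no UMI of the arterial genes *Gja5* and *Bmx*, the aerocyte capillary gene *Car4* or the lymphatic genes *Mmrn1* and *Prox1*. By this rule 441 of 20571 endothelial cells, and of 39503 barcodes in all, were venous. The comparison of venous with other endothelial cells is therefore a description with no test, and tests were made only between groups of mice.

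The cells come from 5 libraries of dissociated adult lung, each pooling several mice of 1 condition and sorted to be CD45 negative, Ter119 negative and viable. The β1 AT2-KO mice (labelled Itgb1 iKO) carried SP-C rtTA, Tet-O-Cre and floxed *Itgb1*, so that doxycycline drove Cre from the surfactant protein C promoter and deletion was directed at alveolar type 2 (AT2) epithelial cells, not at endothelium. The controls were littermates with the floxed alleles but neither transgene (β1 fl/fl, labelled Itgb1 fl/fl). Mice of both genotypes were given doxycycline, which was stopped 1 month before injury, and at 3 months of age received a single intratracheal dose of bacterial lipopolysaccharide (LPS) or PBS. The libraries are LPS-treated β1 fl/fl, PBS-treated β1 AT2-KO and LPS-treated β1 AT2-KO at day 7, and LPS-treated β1 fl/fl and β1 AT2-KO at day 21. The day 21 suspensions were enriched with EPCAM positive cells. PBS-treated β1 fl/fl lungs were not analysed here.

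The venous wall differs from the capillary bed by a transcriptional program in which COUP-TFII (*Nr2f2*) restrains Notch signalling, while arterial endothelium keeps Notch and the ephrin ligand *Efnb2* on. Veins are a site where leukocytes can leave the blood. Venous endothelium stores von Willebrand factor and P-selectin in Weibel-Palade bodies, from which both reach the surface within minutes of a stimulus. In the lung, *Slc6a2*, the noradrenaline transporter, and *Bst1*, an ectoenzyme that cleaves NAD, mark venous endothelium, while *Vwf* is shared with arteries.

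In library order (β1 fl/fl LPS, β1 AT2-KO PBS and β1 AT2-KO LPS at day 7, then β1 fl/fl and β1 AT2-KO at day 21) there were 139, 141, 119, 30 and 12 venous cells, holding 516839, 368158, 475273, 80732 and 30300 UMIs. Their median depths were 3614, 2324, 3602, 2418.5 and 2204 UMIs, against 2234, 2055, 2278, 2014 and 1774 in general capillary cells, so the PBS-treated venous cells were the shallowest at day 7. Hashtag antibodies mark the mice, and 3 were in use in each library. The labels do not tie hashtags to animals, and 3 to 4 mice were pooled per condition, so each hashtag is counted here as 1 mouse. A single hashtag was carried by 114, 115 and 99 of the day 7 venous cells. These gave between 29 and 48 venous cells a mouse. At day 21 a single hashtag was carried by 23 and 11 venous cells, of which 16 belonged to 1 β1 fl/fl mouse and no other mouse had more than 4. All mice of a condition share a library, so library and condition cannot be told apart, and p-values measure the spread between mice within a library. Between 24 and 164 barcodes were shared by any pair of libraries, at most 1.69% of the smaller one.

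The day 7 LPS groups differed in sex as well as genotype: the X-inactivation RNA *Xist* was at 305, 327 and 345 CPM in the venous cells of the β1 fl/fl mice and at 0 in all 3 LPS-treated β1 AT2-KO mice, so genotype and sex cannot be told apart there. In the PBS-treated β1 AT2-KO mice it was at 349, 0 and 0 CPM. RNA of other cell types was also counted, as 26 marker genes of epithelium, fibroblasts, muscle, blood and immune cells summed to 2326, 475, 3232, 2663 and 17822 CPM in venous cells. *Sftpc*, the surfactant gene of AT2 cells, made up 884, 231, 1986, 1883 and 14125 CPM of this, and *Scgb1a1*, a secretory gene of club cells, 1010, 103, 568, 136 and 660 CPM. Whether it came from free RNA or from doublets was not tested. Their sum in general capillary cells was 4230, 1388, 6756, 4286 and 19790 CPM. Between 9 and 18 of the 26 genes had a UMI in venous cells of a library.

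The rule genes *Vwf*, *Slc6a2* and *Bst1* were higher in venous than in general capillary cells in all 5 libraries by choice. Other vein genes are given by their levels. A level is a gene's UMIs per 1000000 UMIs of the same cells (CPM). *Nr2f2*, which the rule did not use, stood at 104, 84.2, 133, 49.5 and 132 CPM in venous cells, and over all libraries at 106 CPM against 9.26 in general capillary, 3.94 in aerocyte, 1.55 in arterial and 236 in lymphatic cells. *Nrp2*, a co-receptor of VEGF-C, followed the same order with 126 CPM in venous, 14.2 in general capillary and 1099 in lymphatic cells. *Ephb4*, the venous receptor for ephrin-B2, set the cells apart less, at 466 CPM in venous and 343 CPM in general capillary cells. RNA was counted for both VCAM-1 and P-selectin, which venous endothelium can show to leukocytes. *Vcam1* lay between 187 and 310 CPM by library and averaged 222 CPM against 6.08 in general capillary cells. *Selp* stood at 107 CPM against 0.908, but at day 21 at 37.2 CPM in β1 fl/fl and 33.0 CPM in β1 AT2-KO. *Ackr1*, the chemokine scavenger of venules, was sparse, with 61.9 CPM at day 7 in β1 fl/fl, 6.31 CPM (3 UMIs) in LPS-treated β1 AT2-KO and no UMI in the other libraries, where a count of 0 allows up to 8.15, 37.2 and 99.0 CPM.

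**Figure D1:**
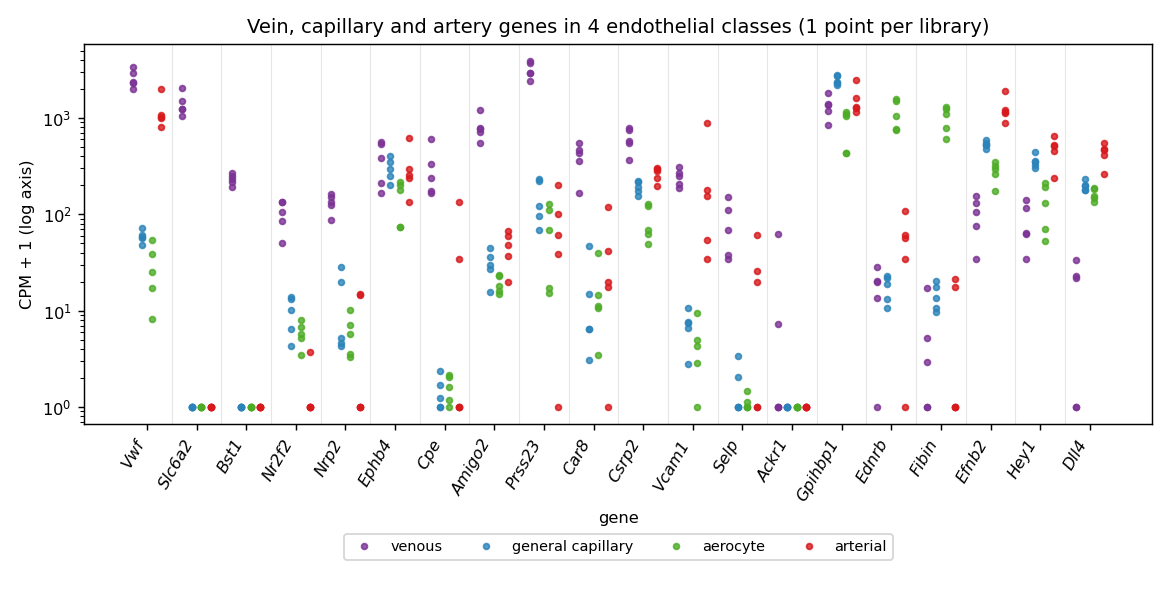
Levels of 20 vein, capillary and artery genes, with genes on the horizontal axis and CPM plus 1 on a logarithmic vertical axis. Each point is 1 library and colours mark the 4 endothelial classes. *Vwf*, *Slc6a2* and *Bst1* chose the venous cells, and *Prss23*, *Amigo2* and *Nr2f2*, which did not, are above the general capillary points in every library.

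Outside the genes of the rule, the largest venous over general capillary ratios belonged to *Cpe*, a carboxypeptidase of secretory granules, at 381 CPM against 0.636, and *Car8*, a carbonic anhydrase-related protein, at 455 CPM against 7.54. They were followed by the secreted protein *Cytl1* (240 CPM against 1.73), the adhesion protein *Amigo2* (808 CPM against 34.3) and the fibrinogen-like protein *Fgl2* (190 CPM against 2.81). *Tmem45a*, the serine protease *Prss23*, the elastic fibre protein *Fbln5*, *Vcam1*, the cholesterol hydroxylase *Ch25h*, *AU021092* and *Samd5* completed the 15 largest ratios, 3 of which were rule genes. The median log2 ratio over the 5 libraries ranged from 3.15 for *Samd5* to 4.84 for *Car8* among these genes. The ranking took only genes higher in venous cells in all 5 libraries, so this held for all 12 by choice. *Prss23* was found in 93.3% of venous cells in β1 fl/fl at day 21 and in 94.2% at day 7, but also in 13.8% and 30.4% of the general capillary cells of these libraries. Some were also high in arteries, as arterial cells of the day 7 β1 fl/fl library held 389 CPM of *Fbln5* and 154 CPM of *AU021092*, and all arterial cells together 180 CPM of *Vcam1*.

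Of 18 arterial genes, 17 were lower in venous than in arterial cells (all but *Fbln5*) and 13 lower than in general capillary cells. Of 13 genes of the aerocyte, the large capillary cell of the gas exchange surface, 12 were lower in venous cells than in aerocytes. Of 22 venous genes 21 were higher than in general capillary cells. The lists were chosen with earlier results of these data known, so these counts describe the classes and are no test of them. The 14 general capillary genes were mixed, with 9 lower and 5 higher in venous than in general capillary cells. The Notch ligand *Dll4* was at 23.8 CPM in venous, 186 CPM in general capillary and 483 CPM in arterial cells. The Notch target *Hey1* was at 99.2 CPM in venous and 373 CPM in general capillary cells. *Efnb2* was at 123 CPM in venous and 513 CPM in general capillary cells, and the chemokine *Cxcl12* at 409 CPM in venous and 1197 CPM in general capillary cells. The aerocyte genes *Ednrb* and *Fibin* stood at 21.1 and 6.12 CPM in venous cells and at 965 and 929 CPM in aerocytes. *Gpihbp1*, which anchors lipoprotein lipase on capillary endothelium and gated the general capillary cells, was still at 1239 CPM in venous cells. Of the cytokines of inflamed endothelium, *Il6* (1.36 CPM), *Ccl2* (0.68 CPM) and *Cxcl1* (1.36 CPM) were close to 0 in venous cells over all libraries. *Cxcl10* was not. In day 7 venous cells it was at 101 CPM with *Slc6a2* alone, 94.4 with both *Slc6a2* and *Bst1* and 18.6 with *Bst1* alone. *Lyve1*, kept in the list of lymphatic genes, was at 1741 CPM in venous, 1905 CPM in lymphatic and 683 CPM in general capillary cells.

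The rule admits a cell by *Slc6a2* or by *Bst1*, and the cells admitted by one gene alone were not alike. *Slc6a2* without *Bst1* was found in 47.5%, 58.2%, 46.2% and 46.7% of venous cells in the first 4 libraries and in 6 of 12 cells of the last, *Bst1* without *Slc6a2* in 15.8%, 9.93%, 18.5%, 6.67% and 16.7% in library order, and both in the rest. Over the day 7 libraries 203 cells held *Slc6a2* alone, 58 *Bst1* alone and 138 both. Most genes with high venous ratios were low in the cells with *Bst1* alone. *Cytl1* was at 183 CPM with *Slc6a2* alone, 376 with both and 9.28 with *Bst1* alone, and *Prss23* at 2995, 3661 and 966 CPM. *Amigo2*, *Cpe* and *Car8* showed the same order between the single-gene cells, at 842 against 269, 292 against 92.8 and 415 against 144 CPM. *Sparcl1* and *Ntrk2* were lower in venous than in general capillary cells as a whole, at 174 against 823 and 36.0 against 123 CPM. The cells with *Bst1* alone were higher in the neurotrophin receptor *Ntrk2* (186 CPM against 10.7), the matrix protein *Sparcl1* (696 against 78.3), the apelin receptor *Aplnr* (144 against 53.4) and the class II chaperone *Cd74* (5088 against 2134). *Ntrk2* and *Sparcl1* were higher in *Bst1*-alone cells in each of the 3 day 7 libraries, with log2 ratios of *Slc6a2* alone over *Bst1* alone between -4.44 and -1.47 for *Ntrk2* and between -4.02 and -1.49 for *Sparcl1*. These genes were picked from the same cells that formed the groups, so the differences are described and not tested.

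**Figure D2:**
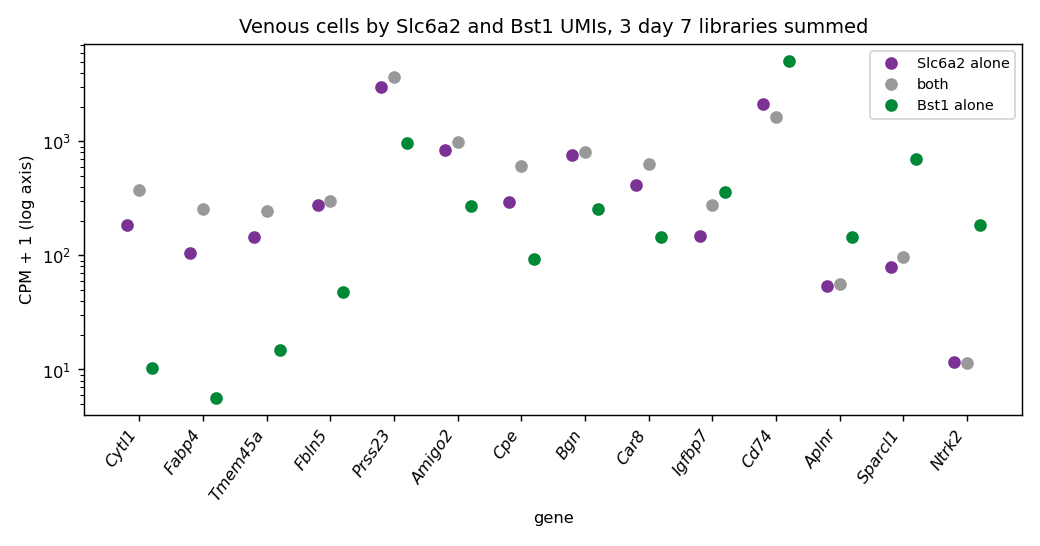
Levels of 14 genes in venous cells of the 3 day 7 libraries summed, split by which of *Slc6a2* and *Bst1* had UMIs, with CPM plus 1 on a logarithmic vertical axis and 1 point per group of cells. Cells with *Bst1* alone are lowest for genes from *Cytl1* to *Car8* and highest for *Igfbp7*, *Cd74*, *Aplnr*, *Sparcl1* and *Ntrk2*.

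The cells nearest to the thresholds of the rule were as follows. In library order, 19, 26, 22, 4 and 3 venous cells had exactly 2 *Vwf* UMIs, and 40, 32, 25, 6 and 3 had exactly 1 UMI of *Slc6a2* and *Bst1* together. Outside it, 16, 32, 15, 0 and 0 cells failed only by having 1 *Vwf* UMI, and 27, 27, 21, 2 and 1 only by 1 UMI of an arterial, aerocyte or lymphatic gene. A larger number, 162, 203, 193, 22 and 3 cells, met every other condition and had no *Slc6a2* or *Bst1* UMI.

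Venous cells were 2.25% of endothelial cells in LPS-treated β1 fl/fl (exact 95% binomial interval 1.89 to 2.65%), 1.78% in PBS-treated β1 AT2-KO (1.5 to 2.09%) and 2.71% in LPS-treated β1 AT2-KO lungs at day 7 (2.25 to 3.23%). At day 21 they were 2.55% in β1 fl/fl (1.72 to 3.62%) and 1.36% in β1 AT2-KO lungs (0.703 to 2.36%). These intervals cover counting error only. By mouse the share was 2.33% ± 0.541, 1.80% ± 0.469 and 2.81% ± 0.338 at day 7 (SD, n = 3 in each group). The LPS-treated β1 AT2-KO mice lay at 2.48, 2.79 and 3.16% and the PBS-treated mice at 1.41, 1.66 and 2.32%, which did not overlap, while the β1 fl/fl mice (1.96, 2.08 and 2.95%) overlapped both. No test was made of a share that the rule itself sets, and the groups also differed in depth as given above. They differed too in cells left out for a UMI of *Mki67* or *Top2a*. Before that step the day 7 libraries held 6677, 7957 and 4958 endothelial cells, and after it 6180, 7937 and 4391. Among all cells that passed the filter, in place of endothelial cells alone, the venous share was 1.67%, 1.63% and 1.64% at day 7, level between the groups, and 1.35% and 0.395% at day 21. After each cell was thinned to 2000 UMIs the means over mice were 1.81%, 1.60% and 2.72%. At day 21 the β1 fl/fl mean of 3.49% ± 3.55 rested on 1 mouse at 7.55% (16 of 212 cells), beside 1.95% and 0.958%. With mice taken from the highest hashtag, 9 venous cells, not 16, belonged to this mouse. The β1 AT2-KO mice lay at 2.82, 1.42 and 1.36%.

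**Figure D3:**
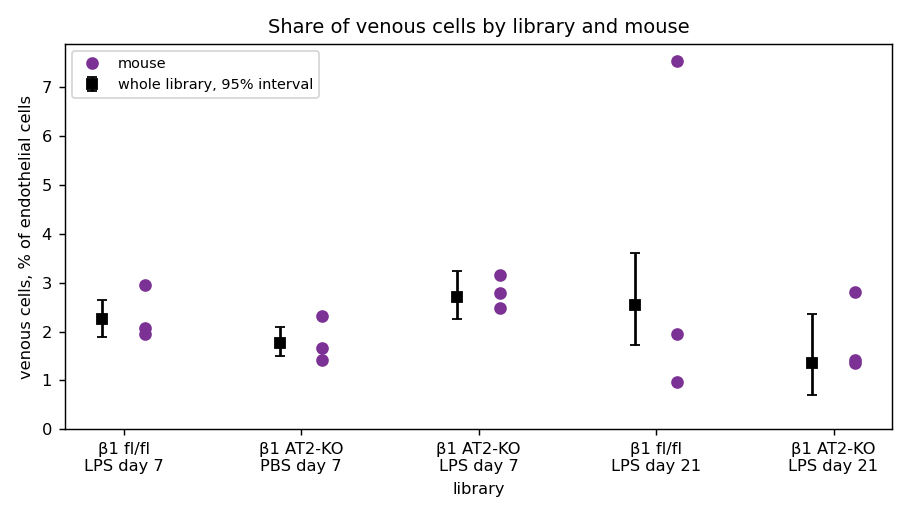
Share of venous cells among endothelial cells in percent (vertical axis) for each library (horizontal axis). Squares are whole libraries with exact 95% binomial intervals and circles are mice told apart by a single hashtag. The 3 LPS-treated β1 AT2-KO mice at day 7 are above the 3 PBS-treated ones, and 1 day 21 β1 fl/fl mouse is at 7.55%.

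The first comparison asks whether venous cells differ between LPS-treated β1 AT2-KO and β1 fl/fl lungs at day 7, when deletion is directed at another cell type. UMIs were summed over the venous cells of each mouse and tested with edgeR's quasi-likelihood test, with p-values adjusted by the Benjamini-Hochberg method over all genes tested and 0.05 as the threshold. Of 2870 genes, 12 passed (0.418%), of which 6 were higher (0.209%) and 6 lower (0.209%) in β1 AT2-KO. General capillary cells of the same mice gave a call in the same direction for 3 of the 6 higher and 4 of the 6 lower genes. Among all genes tested in those cells, 86 of 8787 were called. One marker of another cell type moved with the group: *Sftpc*, whose level outside the endothelium was 50.1 times the venous one, rose by 1.17 ± 0.20 (adjusted p = 0.00342 by edgeR), and its part in the other results was not tested. *Itgb1* itself, measured in cells where Cre was not driven, was at 869, 943 and 1026 CPM in LPS-treated β1 AT2-KO and 1027, 924 and 881 CPM in β1 fl/fl mice, a log2 difference of 0.01 ± 0.19 (SE). It is no check of the deletion. The lists of genes described below, by pathway or cell type, were chosen with earlier results of these data known. Their counts are read against these shares.

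The α-tubulin gene *Tuba1a* differed most among the genes that rose. It was at 860, 550 and 620 CPM in LPS-treated β1 AT2-KO mice and at 130, 74.6 and 91.9 CPM in β1 fl/fl mice, without overlap, as for 14.2% of all genes tested (log2 change 2.81 ± 0.28, adjusted p = 4.88e-06 by edgeR). The PBS-treated β1 AT2-KO mice, at 958, 542 and 604 CPM, lay with their LPS-treated counterparts. In general capillary cells of the same mice the log2 change was 2.96 ± 0.13. The same arrangement, β1 fl/fl apart from both β1 AT2-KO groups, held for the predicted gene *Gm8797*, which was at 17.0, 21.4 and 0 CPM in LPS-treated β1 AT2-KO and at 157, 144 and 214 CPM in β1 fl/fl (-3.62 ± 0.55, adjusted p = 0.00133 by edgeR). For *Gm8797* and the ribosomal protein gene *Rps2*, reads that may be shared with near-identical copies make the values uncertain.

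Among signal-responsive genes, *Nr4a1*, an immediate early nuclear receptor, was at 426, 557 and 283 CPM in LPS-treated β1 AT2-KO and 74.0, 138 and 76.6 CPM in β1 fl/fl mice. The groups did not overlap and the log2 change was 2.07 ± 0.36 (adjusted p = 0.00354 by edgeR). *Nr4a1* was the 1 gene called among 22 tested of the immediate early and heat shock list, whose median change was 0.66 against -0.01 over all genes tested. *Fos*, at 4268, 4488 and 1601 against 2100, 1693 and 3194 CPM, and *Egr1*, at 1917, 2573 and 605 against 611, 1200 and 1333 CPM, overlapped. *Bhlhe40*, a transcriptional repressor that feeds back on the clock, rose by 1.35 ± 0.28 (adjusted p = 0.0223 by edgeR), as 1 of 5 circadian genes tested. Its mice were at 375, 786 and 460 CPM against 287, 212 and 153 CPM. Leaving out LPS-treated β1 AT2-KO mouse 2 lowered its log2 change to 0.96, and leaving out β1 fl/fl mouse 2 or 3 gave 1.33 or 1.16, and a stricter gate (at least 3 UMIs of *Vwf* and 2 of *Slc6a2* and *Bst1* together) gave 1.10, none of them past the threshold.

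At the cell surface and in the matrix 2 genes rose. *Plaur*, the urokinase receptor, which focuses fibrinolysis at the endothelial surface, was at 349, 507 and 337 CPM in LPS-treated β1 AT2-KO and 213, 121 and 76.6 CPM in β1 fl/fl mice (log2 change 1.60 ± 0.28, adjusted p = 0.00354 by edgeR). It was the 1 gene called of 16 tested in the Weibel-Palade body and haemostasis list, and its call was lost without β1 fl/fl mouse 2 (1.51) or mouse 3 (1.33) and with the stricter gate (1.33). *Adamts1*, a secreted protease of proteoglycans, was at 741, 850 and 1072 CPM against 287, 373 and 429 CPM (1.28 ± 0.21, adjusted p = 0.00342 by edgeR). It was the 1 gene called of 19 in the matrix list. In general capillary cells *Adamts1* differed by 0.66 ± 0.13.

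Genes that fell included *Smarca2*, an ATPase of the SWI/SNF chromatin remodelling complex, at 111, 121 and 115 CPM in LPS-treated β1 AT2-KO and 296, 385 and 368 CPM in β1 fl/fl (log2 change -1.59 ± 0.23, adjusted p = 0.000862 by edgeR). *H2-T22*, a non-classical class I gene, was at 196, 214 and 253 against 453, 505 and 513 CPM (-1.14 ± 0.20, adjusted p = 0.00354 by edgeR), and was the 1 gene called of 20 in the antigen presentation list. The PBS-treated β1 AT2-KO mice, at 304, 255 and 293 CPM of *H2-T22* and 169, 155 and 159 CPM of *Smarca2*, lay between. Class I genes share sequence, so the value of *H2-T22* is uncertain. *B2m*, the light chain of class I, was at 1567, 1051 and 1287 against 2044, 2199 and 2497 CPM and did not pass (-0.79 ± 0.19, adjusted p = 0.0609 by edgeR). *Rps2* fell by 1.24 and the sex-linked *Xist* by 8.31 on the log2 scale.

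No gene was called among 19 tested of the venous list (median -0.17), 24 of venous and arterial fate signalling and 23 of junctions and permeability. The rule genes *Vwf*, *Slc6a2* and *Bst1* were left out of the test. There was also no call among 12 leukocyte adhesion genes, 11 NF-κB genes and 23 interferon response genes. The same held for 10 secreted niche signals and 8 oxidative stress genes. With 0.418% of all genes called, counts of 0 in lists of this size are near that share and are no result about their members. For comparison, 264 of the 2870 genes had an unadjusted p below 0.05 with edgeR, and DESeq2's Wald test called 11 of the 2870. *Nr2f2* was at 119, 136 and 161 against 37.0, 166 and 99.6 CPM and *Selp* at 8.52, 322 and 15.3 against 83.3, 207 and 207 CPM, so that the groups overlapped. A gene changed by 2-fold was recovered in 17 of 100 simulated cases and one changed by 4-fold in 68 of 100 at this depth. Changes of smaller size were thus largely not detectable. The simulation gave every gene the same spread between mice and changed only genes above a minimum expected count. Recovery of sparser genes, or of genes that vary more between mice, was not measured. The count of 12 was 26 without LPS-treated β1 AT2-KO mouse 1 and 28 without mouse 3.

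**Figure D4:**
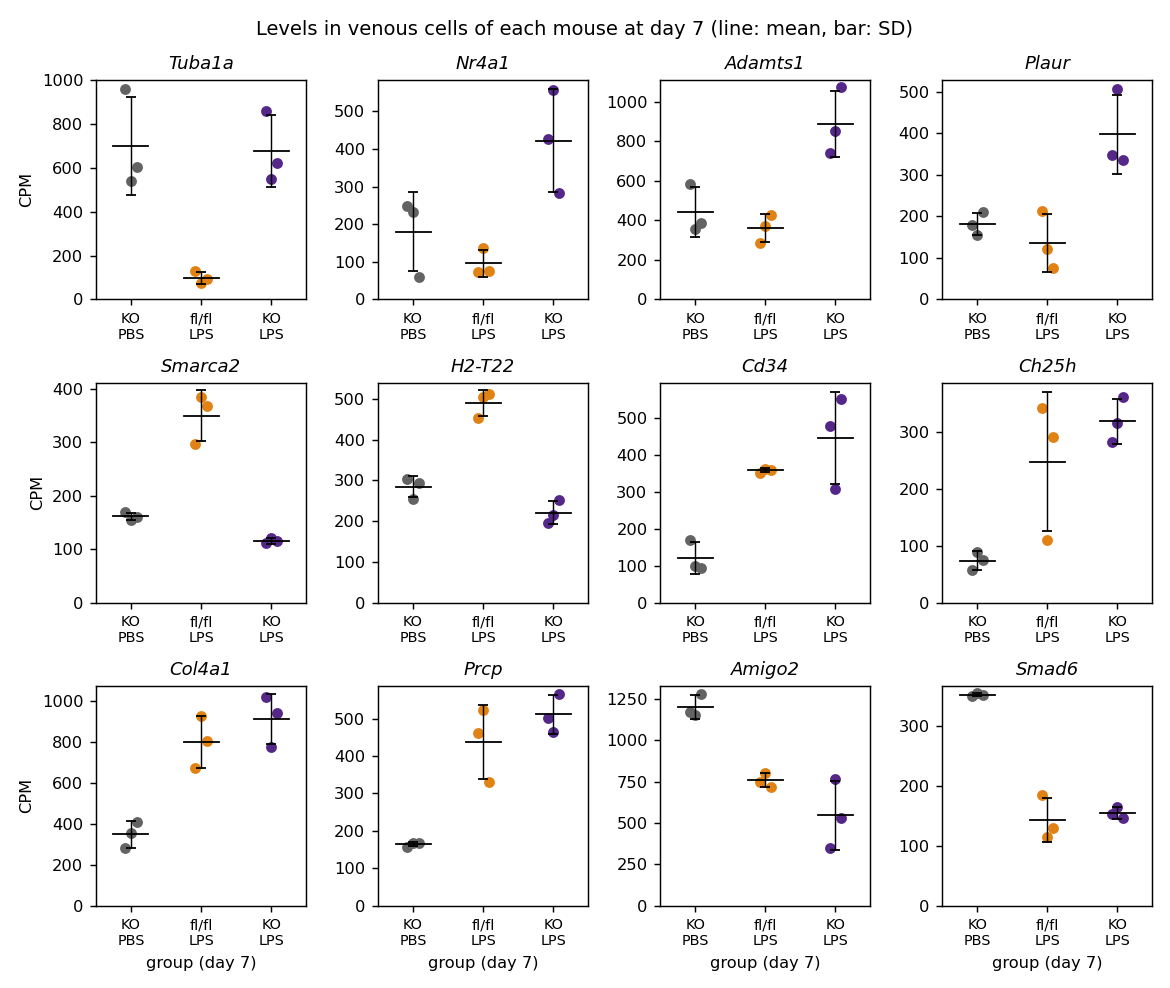
Levels in CPM (vertical axes, from 0) of 12 genes in the venous cells of each mouse at day 7, by group (horizontal axes; KO stands for β1 AT2-KO). Circles are mice, lines are means and bars are SD (n = 3). *Tuba1a* and *H2-T22* set β1 fl/fl apart from both β1 AT2-KO groups, while *Col4a1*, *Prcp*, *Amigo2* and *Smad6* set the PBS-treated group apart from both LPS-treated groups.

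The second comparison asks how venous cells of LPS-treated β1 AT2-KO lungs differ at day 7 from those of PBS-treated β1 AT2-KO lungs. Of the 2870 genes, 113 passed (3.94%), of which 43 were higher after LPS (1.5%) and 70 lower (2.44%). Most were not particular to venous cells. In general capillary cells, 27 of the 42 higher genes tested there and 58 of the 70 lower ones were called in the same direction. Among all genes tested in those cells, 774 of 8787 were called. The second comparison shares the LPS-treated β1 AT2-KO mice with the first, and the mice differed in sex mix as given above. The count was 39 without LPS-treated mouse 3, 46 and 51 without PBS-treated mouse 2 and 3, and 154 without PBS-treated mouse 1, and DESeq2's Wald test called 51. Markers of other cells rose with the treatment: all 4 that could be tested (*Sftpc*, *Sftpa1*, *Lyz2* and *Scgb1a1*) were called higher, with log2 changes between 2.44 and 3.18. Their part in the other results was not tested, but the count was 105 when sex-linked genes and every gene over 5 times higher outside the endothelium were left out, an alternative added after seeing the data.

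Genes of the matrix and basement membrane were among those that rose. In their list 5 of 19 genes tested were higher and none lower, with a median change of 0.53. *Col4a1*, the α1 chain of type IV collagen, was at 1022, 779 and 942 CPM in LPS-treated and 282, 354 and 411 CPM in PBS-treated mice, without overlap, as for 19.9% of all genes tested (log2 change 1.35 ± 0.21, adjusted p = 0.000954 by edgeR). *Col4a2*, the α2 chain that assembles with it, was at 392, 264 and 329 against 124, 133 and 168 CPM (1.16 ± 0.27, adjusted p = 0.0207 by edgeR). The LPS-treated β1 fl/fl mice, at 675, 930 and 804 CPM of *Col4a1* and 204, 356 and 306 CPM of *Col4a2*, were also above every PBS-treated mouse. *Col4a1* passed in all 16 settings tried, while *Col4a2* fell short in 5, among them without LPS-treated mouse 1 (1.03) or 3 (1.17) and without PBS-treated mouse 2 (1.13), and with the stricter gate (1.04). In general capillary cells of the same mice the log2 changes were 0.90 ± 0.21 and 1.02 ± 0.21.

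The promoters of this pair are shown because *Col4a1* (chr8:11198423-11312826, minus strand) and *Col4a2* (chr8:11312805-11449287, plus strand) rose together and are read in opposite directions from start sites 21 bases apart. The windows are from RefSeq on GRCm38.p6, run from 250 bases before to 50 bases after each start, and are printed on the strand of the gene. Capitals mark the 78 bases that the windows share (chr8:11312777-11312854), which close each window because the strands are opposite.
Col4a1, chr8:11312777-11313076, minus strand: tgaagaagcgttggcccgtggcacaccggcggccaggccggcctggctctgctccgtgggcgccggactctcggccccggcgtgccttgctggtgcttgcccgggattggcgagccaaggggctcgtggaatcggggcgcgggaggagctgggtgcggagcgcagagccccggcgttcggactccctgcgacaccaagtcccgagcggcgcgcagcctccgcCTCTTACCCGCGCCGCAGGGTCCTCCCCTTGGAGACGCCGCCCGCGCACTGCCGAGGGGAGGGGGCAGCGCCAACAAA
Col4a2, chr8:11312555-11312854, plus strand: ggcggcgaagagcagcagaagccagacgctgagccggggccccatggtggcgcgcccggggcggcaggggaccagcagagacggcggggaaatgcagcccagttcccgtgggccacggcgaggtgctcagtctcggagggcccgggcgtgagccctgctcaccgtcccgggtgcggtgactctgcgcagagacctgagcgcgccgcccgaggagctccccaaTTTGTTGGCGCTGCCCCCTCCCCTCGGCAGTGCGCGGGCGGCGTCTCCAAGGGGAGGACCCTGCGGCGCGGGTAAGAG
Each window is 300 bases long, and G and C make up 74.0% of the first and 73.7% of the second. The motif CCAAT, searched on both strands, occurred 1 time in each, and was found in 37.4% of 32851 promoter windows of this length. Such overlap is not rare, as 3212 of 27025 genes (11.9%) have a window that overlaps one of the opposite strand.

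Other matrix genes rose with them. *Adamts1* was at 741, 850 and 1072 CPM after LPS and 586, 354 and 386 CPM after PBS (log2 change 1.00 ± 0.22, adjusted p = 0.0137 by edgeR), and its call was lost without LPS-treated mouse 3 (0.86) or PBS-treated mouse 2 (0.89) or 3 (0.92) and with the stricter gate (0.80). *Adamts9*, a protease of the same family, was at 128, 150 and 146 against 67.6, 11.1 and 8.38 CPM (2.34 ± 0.56, adjusted p = 0.0245 by edgeR), a call that was lost without LPS-treated mouse 3 (2.33) or PBS-treated mouse 2 (2.03) or 3 (1.83). *Sparc*, a collagen-binding glycoprotein, was at 971, 472 and 973 against 428, 332 and 193 CPM (1.34 ± 0.30, adjusted p = 0.0169 by edgeR), and lost its call without LPS-treated mouse 3 (1.19) or PBS-treated mouse 3 (1.07). The levels of *Sparc* and *Sparcl1* in cells without endothelial UMIs were 4.36 and 7.10 times the venous ones. That of *Col4a1* was 0.67 times the venous one.

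At the luminal surface *Cd34*, a sialomucin that can carry ligands for L-selectin, was at 477, 307 and 551 CPM after LPS and 169, 99.6 and 92.2 CPM after PBS. The groups did not overlap (log2 change 1.88 ± 0.28, adjusted p = 0.000601 by edgeR), the β1 fl/fl mice stood at 352, 362 and 360 CPM, and *Cd34* also differed in general capillary cells (1.26 ± 0.19). It was the 1 gene called of 12 tested for leukocyte adhesion. The adhesion molecules by which inflamed venules are usually known overlapped between groups: *Vcam1* was at 93.7, 314 and 260 against 45.1, 122 and 344 CPM, *Icam1* at 349, 493 and 360 against 789, 465 and 486 CPM, and *Selp* at 8.52, 322 and 15.3 against 158, 0 and 75.4 CPM. None of 11 NF-κB genes passed. *Plaur* rose by 1.10 ± 0.28 (adjusted p = 0.0345 by edgeR) as 1 of 16 haemostasis genes, and its call was lost without LPS-treated mouse 2 (0.88) or PBS-treated mouse 2 (1.02) or 3 (1.25).

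*Ch25h*, *Prcp* and *Bhlhe40* passed in all 16 settings. *Ch25h*, which makes 25-hydroxycholesterol, was at 281, 314 and 360 CPM after LPS and 56.4, 88.6 and 75.4 CPM after PBS (log2 change 2.08 ± 0.38, adjusted p = 0.00338 by edgeR). *Prcp*, a lysosomal carboxypeptidase that acts on angiotensin II and prekallikrein, was at 503, 465 and 567 against 158, 166 and 168 CPM (1.61 ± 0.24, adjusted p = 0.000601 by edgeR), and the β1 fl/fl mice at 463, 522 and 329 CPM were also above PBS. *Bhlhe40* was at 375, 786 and 460 against 225, 177 and 126 CPM (1.64 ± 0.30, adjusted p = 0.00338 by edgeR). In each of these 3 genes the groups were apart. *H1f0*, a linker histone of resting cells, was at 605, 429 and 414 against 147, 188 and 184 CPM (1.44 ± 0.32, adjusted p = 0.0163 by edgeR), a call lost with the stricter gate (1.20). *Trib1*, *Aimp1*, *Col5a2* and *Snrpd2* also belong to the 10 largest rises, with log2 changes of 2.20, 1.69, 1.5 and 1.35 and adjusted p between 0.0442 and 0.0485 by edgeR, and each lost its call without at least 4 of the 6 mice in turn.

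Of the immediate early and heat shock genes, 2 of 22 rose and 1 fell. *Klf2*, the flow-responsive factor that holds endothelium quiescent, was at 3629, 5360 and 4197 CPM after LPS and 2603, 2624 and 2121 CPM after PBS (log2 change 0.83 ± 0.20, adjusted p = 0.0245 by edgeR), with its call lost without LPS-treated mouse 2 (0.66) or PBS-treated mouse 3 (0.75). *Nr4a1* rose by 1.29 ± 0.35 (adjusted p = 0.0442 by edgeR), a call lost without LPS-treated mouse 1 (1.29) or 2 (1.03) or PBS-treated mouse 3 (0.82) and with the stricter gate (1.31). The chaperone *Hspa8* fell by 0.83 on the log2 scale, and its call was lost without LPS-treated mouse 3 (-0.83) or PBS-treated mouse 2 (-0.76). The metallothionein *Mt1*, which buffers zinc, was at 460, 164 and 61.3 CPM after LPS and 0, 0 and 8.38 CPM after PBS, but its level outside the endothelium was 7.83 times the venous one.

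In the list of venous and arterial fate signalling 3 of 24 genes fell and none rose (median -0.49), among them both inhibitory SMADs. *Smad6*, an inhibitory SMAD that blocks BMP signalling, was at 153, 164 and 146 CPM after LPS and 349, 354 and 352 CPM after PBS (log2 change -1.20 ± 0.23, adjusted p = 0.00551 by edgeR). Its groups were far apart, the β1 fl/fl mice stood at 185, 115 and 130 CPM, and it passed in all 16 settings. *Smad7*, the inhibitory SMAD of both branches, was at 256, 164 and 214 against 327, 421 and 419 CPM (-0.91 ± 0.24, adjusted p = 0.0375 by edgeR), and the endothelial factor *Gata2* at 196, 71.5 and 99.6 against 270, 266 and 251 CPM (-1.14 ± 0.30, adjusted p = 0.0352 by edgeR). The BMP targets *Id1* and *Id3* did not pass, at 460, 379 and 375 against 451, 753 and 687 CPM for *Id1* and 1176, 843 and 751 against 1116, 1229 and 1358 CPM for *Id3*. *Bmp6*, a BMP ligand of liver and lung endothelium, fell by 1.65 and the growth factor binding protein *Igfbp4* by 0.70 on the log2 scale, 2 of 10 secreted niche signals. Each of *Smad7*, *Gata2*, *Bmp6* and *Igfbp4* lost its call without some mouse: *Smad7* without LPS-treated mouse 2 (-0.75) or 3 (-0.91) or PBS-treated mouse 2 (-0.84) or 3 (-0.83), and *Bmp6* without LPS-treated mouse 3 (-1.50) or PBS-treated mouse 3 (-1.05). *Gata2* kept its call without LPS-treated mouse 1 alone and *Igfbp4* without LPS-treated mouse 1 or PBS-treated mouse 1. In general capillary cells the log2 change was -1.0 ± 0.15 for *Smad6* and -1.49 ± 0.16 for *Gata2*.

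The venous list moved in both directions, with 1 of 19 genes higher and 1 lower. *Amigo2* was at 349, 765 and 529 CPM after LPS and 1172, 1151 and 1283 CPM after PBS (log2 change -1.14 ± 0.22, adjusted p = 0.00546 by edgeR). The β1 fl/fl mice lay at 749, 804 and 720 CPM, below every PBS-treated mouse. *Ackr3*, a scavenging receptor for CXCL12, was at 852, 1236 and 1111 against 721, 332 and 545 CPM (0.99 ± 0.26, adjusted p = 0.0352 by edgeR), and its call was lost without LPS-treated mouse 2 (0.87) or 3 (0.98) or PBS-treated mouse 2 (0.77) or 3 (1.03). *Cpe* was at 196, 479 and 414 against 327, 22.1 and 33.5 CPM and did not pass (1.60 ± 0.53, adjusted p = 0.0959 by edgeR). *Vegfc*, the lymphatic growth factor, was at 392, 500 and 329 against 203, 288 and 168 CPM, which did not overlap, and lay just outside the threshold (0.90 ± 0.26, adjusted p = 0.0523 by edgeR).

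*Cyp1a1*, the target gene of the aryl hydrocarbon receptor, was at 170, 200 and 46.0 CPM after LPS and 541, 498 and 402 CPM after PBS (log2 change -1.78 ± 0.33, adjusted p = 0.00338 by edgeR). Another cytochrome, *Cyp4b1*, was at 239, 157 and 76.6 against 518, 421 and 771 CPM (-1.91 ± 0.38, adjusted p = 0.00687 by edgeR). *Sgms1*, a sphingomyelin synthase, was at 93.7, 92.9 and 68.9 against 293, 332 and 277 CPM (-1.82 ± 0.29, adjusted p = 0.00119 by edgeR). These groups did not overlap, and *Cyp1a1* and *Sgms1* passed in all 16 settings. *Zbtb16*, a glucocorticoid-responsive transcription factor, was at 25.6, 57.2 and 15.3 against 135, 277 and 168 CPM (-2.50 ± 0.45, adjusted p = 0.00274 by edgeR), and its log2 change in general capillary cells was -2.94 ± 0.23. *Lpl*, lipoprotein lipase, fell by 2.23 and *Sema3c*, a semaphorin, by 1.17 on the log2 scale, 2 of 13 general capillary genes, and *Cyp4b1* and *Pmp22* were 2 of 7 aerocyte genes. *Sema3c* lost its call without PBS-treated mouse 3 (-0.98), *Cyp4b1* with DESeq2 (-1.88) and *Pmp22*, at -0.80, in 11 of 16 settings, among them all but 1 of those without a mouse. *Nkd2*, *Fam107a*, *Atp6v0e2*, *Hopx* and *Cd24a* complete the 10 largest falls, at -2.20, -1.92, -1.85, -1.84 and -1.69, and each, like *Lpl*, lost its call without LPS-treated mouse 3 and also without PBS-treated mouse 2.

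Interferon genes were few among the calls. Of 23 tested, *Irf7* (-1.77 ± 0.49, adjusted p = 0.0464 by edgeR) and *Isg15* (-1.31 ± 0.36, adjusted p = 0.0475 by edgeR) were lower after LPS, and both groups overlapped. *Isg15* was at 128, 179 and 76.6 CPM after LPS and 327, 133 and 461 CPM after PBS, and *Irf7* at 102, 21.4 and 38.3 against 282, 177 and 92.2 CPM. Each lost its call without any of 4 of the 6 mice in turn. No gene passed among 20 of antigen presentation, where *Cd74* ranged from 450 to 3561 CPM over the LPS-treated and from 270 to 7572 CPM over the PBS-treated mice, nor among 23 of junctions and permeability. In this comparison 512 of the 2870 genes had an unadjusted p below 0.05 with edgeR.

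Whether a change differed between venous and general capillary cells was tested as an interaction of cell class and group, with the mouse as a block since both classes come from the same animals. Between LPS-treated β1 AT2-KO and β1 fl/fl, 3 of 7178 genes passed (0.0418%). *Plaur* was one of them: in general capillary cells it stood at 222, 329 and 283 CPM in β1 AT2-KO and 343, 277 and 249 CPM in β1 fl/fl mice, which overlap, so its change in venous cells exceeded that in capillary cells by 1.62 ± 0.26 (log2, adjusted p = 0.00217 by edgeR). *Mgp*, matrix Gla protein, an inhibitor of calcification and of BMP, was at 51.1, 100 and 245 CPM in venous cells of β1 AT2-KO and 241, 396 and 735 CPM in those of β1 fl/fl mice, which overlap (difference -2.06 ± 0.34, adjusted p = 0.00217 by edgeR). *Mgp* was at 4200 and 5727 CPM in cells without endothelial UMIs of these libraries, and the part of free RNA was not tested. Without LPS-treated β1 AT2-KO mouse 1 no gene passed with edgeR. With all mice 359 of the 7178 genes had an unadjusted p below 0.05.

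Between LPS-treated and PBS-treated β1 AT2-KO, 5 of 6868 genes passed (0.0728%). *Bgn*, the proteoglycan biglycan, was at 571, 758 and 651 CPM after LPS and 890, 565 and 972 CPM after PBS in venous cells, but at 101, 102 and 108 against 36.4, 24.4 and 59.8 CPM in general capillary cells (difference -1.67 ± 0.24, adjusted p = 4.38e-05 by edgeR). Its venous values overlapped, and its capillary values did not. *Cd81*, a tetraspanin, likewise overlapped in venous cells at 1107, 1072 and 1111 against 1161, 1140 and 1107 CPM, and was at 253, 258 and 288 against 227, 53.2 and 59.8 CPM in general capillary cells (-1.44 ± 0.26, adjusted p = 0.00235 by edgeR). *Socs3*, the feedback inhibitor of IL-6 family signalling, was at 2027, 1937 and 980 against 1183, 1251 and 972 CPM in venous and 1004, 1076 and 825 against 1136, 1324 and 1228 CPM in general capillary cells (0.87 ± 0.19, adjusted p = 0.0405 by edgeR). The interferon-induced gene *Rsad2* also passed, on few UMIs (-6.20 ± 1.19, adjusted p = 0.00487 by edgeR). *Rsad2* was at 0, 0 and 7.66 CPM after LPS and 45.1, 0 and 143 CPM after PBS in venous cells.

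**Figure D5:**
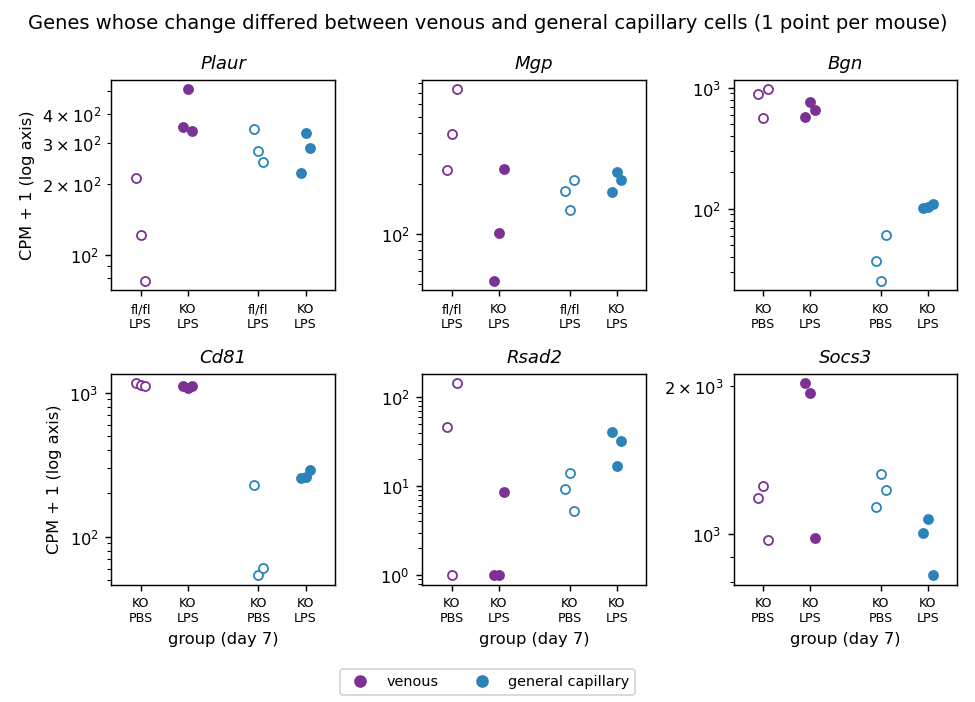
Levels of 6 genes called in the interaction tests, as CPM plus 1 on logarithmic vertical axes, in venous and general capillary cells of each mouse by group (horizontal axes; KO stands for β1 AT2-KO). Filled circles are LPS-treated β1 AT2-KO mice and open circles the group they are compared with, n = 3 each. *Plaur* separates the groups in venous cells only, while *Bgn* and *Cd81* separate them in general capillary cells and overlap in venous cells.

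At day 21 only 1 mouse reached the minimum of 10 venous cells set for the tests, so β1 AT2-KO and β1 fl/fl are compared as 2 libraries with no test. Of 1035 genes with at least 20 UMIs over both, 156 (15.1%) differed by more than 2-fold. *Col4a1* was at 1089 CPM in β1 AT2-KO and 446 CPM in β1 fl/fl (log2 ratio 1.29, 95% interval 0.56 to 2.01, counting error only), and *Col4a2* at 429 and 186 CPM. Of 20 immediate early and heat shock genes, 8 were more than 2-fold lower in β1 AT2-KO and none higher. *Zfp36*, which destabilises inflammatory transcripts, was at 132 against 1870 CPM (4 and 151 UMIs). *Junb* was at 561 against 3072 CPM and *Ier3* at 495 against 3704 CPM.

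Much of this rested on the 1 β1 fl/fl mouse to which a single hashtag assigned 16 of the 30 cells and 47187 of the 80732 UMIs. With mice taken from the highest hashtag, this mouse had 9 venous cells and mouse 2 also had 9, in place of 16 and 4. Its part in the library is therefore uncertain. In the 16 cells *Egr1* stood at 4005 CPM, *Fos* at 3052 CPM, *Zfp36* at 2988 CPM and *Socs3* at 2013 CPM. The other β1 fl/fl cells include 2 with several hashtags and 5 with none, which may come from the same mouse. In the other β1 fl/fl cells *Egr1* was at 119 CPM and *Fos* at 298 CPM, below the 462 and 594 CPM of β1 AT2-KO, and *Socs3* was at 59.6 against 132 CPM. Leaving out the 16 cells was an alternative added after seeing the data. *Xist* was at 42.4 CPM (2 UMIs) in the 16 cells, 507 CPM (17 UMIs) in the other β1 fl/fl cells and 165 CPM in β1 AT2-KO. The sex mix may therefore change with the cells left out, and its part was not tested. No share over all genes was computed without the 16 cells, so the counts by list have no background to be read against. Of the 20 genes, 2 were still more than 2-fold lower in β1 AT2-KO without these cells and 4 were more than 2-fold higher. The 2 were *Zfp36*, at 298 against 132 CPM, and *Nr4a1*, at 179 against 33.0 CPM. Of 16 interferon genes, 6 were lower over the whole library and 3 of these (*Oasl2*, *Iigp1* and *Ifi35*) also without the 16 cells. Of 7 NF-κB genes 4 were lower and 1 (*Icam1*) also without them, where 2 were more than 2-fold higher. *Col4a1* was at 254 CPM in the 16 cells and 715 CPM in the other β1 fl/fl cells, which reduces its log2 ratio to 0.60. *Ackr3* was the gene of the venous list that stayed more than 2-fold lower in β1 AT2-KO, and *Adamts1* and *Timp2* those of the matrix list. All 4 markers of other cells with enough UMIs were higher in β1 AT2-KO, *Sftpc* at 14125 against 1883 CPM.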

How the data were processed

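Lungs were profiled with 10x Genomics 5′ single-cell libraries. The authors aligned reads to mm10 and deposited raw UMI counts per gene and hashtag, made with Cell Ranger 3.1 per the submitters' notes, which also name Seurat 4.1.0. These counts precede the study's correction for free RNA and its removal of doublets. The 5 libraries hold 8360954 to 29128331 UMIs in cells that passed the filter on genes and mitochondrial UMIs.

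Members, gene lists and comparisons were chosen with earlier results of these data known. General capillary cells had at least 2 *Gpihbp1* UMIs and fewer than 2 of *Vwf*, arterial cells at least 2 of *Gja5* and *Bmx*, aerocytes at least 2 of *Car4* and lymphatic cells at least 2 of *Mmrn1* and *Prox1*, with none of the other classes' genes. A hashtag was in use with at least 1% of tag counts and carried at 4 times its background. No doublets were removed in the main analysis. Scrublet (scanpy 1.11.5) marked 0, 0.0231, 0, 1.08 and 1.48% of cells at its own threshold, so as an alternative the highest scores were removed up to 0.8% of cells per 1000 barcodes, which marked 10 venous cells.

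UMIs were summed per mouse with at least 10 single-hashtag venous cells. Day 7 sums of 9 mice were fitted together in edgeR 4.0.16 (R 4.3.3) with TMM scaling, genes kept by filterByExpr, the quasi-likelihood test and Benjamini-Hochberg adjustment, without the 17 rule genes. DESeq2 1.42.0 was an alternative. With 3 mice against 3 an exact permutation test of a single gene cannot give a p below 0.1. The test was checked on simulated data of 2709 genes for the comparison of LPS-treated β1 AT2-KO with β1 fl/fl, in which it made 5 false calls. These data held only the groups compared, with the same spread between mice for every gene. Named genes are those of the rule, list members past the test and the 15 largest venous over general capillary ratios (10 CPM added). These ratios were ranked among genes higher in venous cells in all 5 libraries. Also named are the 10 largest rises and falls past the test with groups apart and at least 20 CPM. Their level in cells without endothelial UMIs was at most 5 times the venous one. That last condition left out *Sftpc* in the first comparison and 7 genes in the second. A gene that passed is not reported here, though it is kept in the counts. Other genes were named after their values were seen, as were all in the account of *Slc6a2* and *Bst1*. At day 21, ratios had 0.5 UMIs added. Coordinates are from GENCODE vM21 (GRCm38). Python 3.11.15, numpy 2.4.6, scipy 1.17.1, pandas 2.3.3 and matplotlib 3.10.9 were used.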

Additional observations from a re-analysis of the deposited data

Results flagged for a closer look

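Some genes changed differently in venous and general capillary cells at day 7, by a test of the difference itself (edgeR interaction, adjusted p below 0.05). Between LPS-treated β1 AT2-KO and β1 fl/fl the change in venous cells less that in general capillary cells was 1.62 for *Plaur* and -2.06 for *Mgp* on the log2 scale. Between LPS-treated and PBS-treated β1 AT2-KO it was -1.67 for *Bgn*, -1.44 for *Cd81*, -6.20 for *Rsad2* and 0.87 for *Socs3*. *Bgn* and *Mgp* were far higher in cells without endothelial UMIs, at 1940 CPM of *Bgn* in the LPS-treated library and 5727 CPM of *Mgp* in the β1 fl/fl library, and the part of free RNA in these values was not tested.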

How the results depend on the processing

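No paired analysis was possible because each group is 1 deposited sample and the labels give no replicate numbers. The same hashtags recur in different libraries, but each library holds mice of its own condition, so a shared hashtag pairs no mice. Of the 12 genes called between LPS-treated β1 AT2-KO and β1 fl/fl, 9 passed in every setting that gave an adjusted p. The count was 53 with no filter on low counts, 23 with mice taken from the highest hashtag and 21 with only the groups compared in the fit, and leaving out each mouse in turn gave 9 to 28. The 113 genes called between LPS-treated and PBS-treated β1 AT2-KO became 62 with only the groups compared, 51 with DESeq2's Wald test and 75 with sums thinned to equal UMIs (chosen after seeing the data), and 39 to 154 without each mouse; 15 of 46 genes named or in lists passed in every setting that gave an adjusted p. The interaction counts of 3 and 5 were 10 and 9 with no filter, and 0 to 5 and 3 to 9 without each mouse. No gene called at day 7 and named or in a list changed sign in any setting, and other genes were not checked. The cause of these differences was not tested. Shares of venous cells in library order at day 7 were 1.49%, 1.16% and 1.82% with a stricter gate. Of all cells they were 1.67%, 1.63% and 1.64% at day 7, which removes the difference between LPS-treated and PBS-treated libraries, and 1.35% and 0.395% at day 21. The share was 3.05% with a looser gate for LPS-treated β1 AT2-KO at day 7. At day 21 the minimum of 10 cells left 1 mouse, so no test was made and the alternatives of the test were not run. Library ratios were recomputed without the 16 cells that a single hashtag assigned to 1 β1 fl/fl mouse. The ratio then changed sign for 8 of 20 immediate early and heat shock genes. Between 29 and 48 cells a mouse limit what low genes can show.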

Other observations

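Some venule genes varied widely between mice of a group; they were chosen after their values were seen. *Ackr1* had 2, 12 and 18 UMIs in the β1 fl/fl mice (18.5, 68.9 and 138 CPM), 0, 2 and 1 in the LPS-treated β1 AT2-KO mice and none in the PBS-treated mice. *Selp*, which encodes P-selectin, had 45 UMIs in 1 LPS-treated β1 AT2-KO mouse (322 CPM) and 1 and 2 UMIs in the others. *Cpe* was at 327 CPM in 1 PBS-treated mouse and at 22.1 and 33.5 CPM in the others, against 196, 479 and 414 CPM in the LPS-treated β1 AT2-KO and 398, 643 and 866 CPM in the β1 fl/fl mice.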
